A study of Mus musculus with 13 samples.

Results

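The Hox genes were examined in maps of glucocorticoid receptor (GR) binding made by ChIP-seq, the sequencing of DNA pulled down with an antibody, in mouse embryonic fibroblasts, the connective tissue cells that grow out of minced embryos. The genes were chosen by symbol, as those named Hoxa, Hoxb, Hoxc or Hoxd followed by a number. The annotation holds 39 of them, 11 in HoxA, 10 in HoxB, 9 in HoxC and 9 in HoxD. Of these, 3 had a GR peak assigned to them in any deposited list, among 8725 genes with a peak in all.

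The cells came from C57BL/6 male embryos at embryonic day 13.5, without head and internal organs, and were grown for 7 days. With dexamethasone (Dex, a synthetic glucocorticoid that activates GR; 1 µM in ethanol for 16 h) and lipopolysaccharide (LPS, a part of the outer membrane of bacteria that triggers inflammation; 100 ng/µl, as labelled, for 3 h) there were 4 libraries of the zinc finger mutant labelled GR Zn/Zn, 2 of GR knockout and 3 of wild-type cells. With Dex alone, at the same dose and time, there were 2 zinc mutant and 2 wild-type libraries. All libraries used 1 GR antibody, and the sources used here do not say how many embryos or cultures stand behind a library, so the spread between the Dex libraries may be technical.

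Hox genes encode homeodomain transcription factors that tell cells of the embryo where they lie along the body and limb axes. They sit in 4 tight clusters and are switched on roughly in the order of their position, from the low-numbered genes used toward the head to the high-numbered genes used toward the tail and fingertips. Retinoic acid receptors, Polycomb and trithorax chromatin complexes and noncoding RNAs of the clusters are known to regulate them, and fibroblasts in culture keep a Hox expression pattern of their site of origin. Peak lists give no expression level, so the cell type, the level of the receptor in each genotype and the activity of a Hox gene cannot be read from them.

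With Dex+LPS the deposited lists held 2187 peaks specific to the zinc mutant, 3533 shared and 18953 specific to wild type, each 200 bp wide. The Dex libraries had 53 and 60 peaks in the zinc mutant and 412 and 854 in wild-type cells. The lists carry no height, score or count of a peak, and the Dex+LPS libraries had been merged by genotype, so no spread between replicates exists for them. Peaks also found in knockout cells had been taken out of the Dex+LPS lists.

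The sequence shown is the start of Hoxa5, the one Hox gene whose tabulated promoter window (250 bases before to 50 after the gene start) was touched by a peak. It is the RefSeq promoter of build GRCm38.p6 on the minus strand, chr6:52204538-52204837. Capitals mark the 28 bases, 23 to 50 counted from the gene's first base as 1, that lie inside the wild-type-specific peak chr6:52204366-52204565.

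Hoxa5: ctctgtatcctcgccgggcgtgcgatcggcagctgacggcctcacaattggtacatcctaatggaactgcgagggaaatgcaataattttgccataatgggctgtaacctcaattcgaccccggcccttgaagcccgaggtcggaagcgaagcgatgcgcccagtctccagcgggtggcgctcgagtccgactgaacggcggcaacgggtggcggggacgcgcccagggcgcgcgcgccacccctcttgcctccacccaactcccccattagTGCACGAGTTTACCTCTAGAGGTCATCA

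In this window 61.7% of the bases were G or C, and it held 29 CG dinucleotides. Of the 28 bases inside the peak, 46.4% were G or C. The window held no glucocorticoid response element core (ACANNNTGT, where N is any base), no AP-1 motif (TGANTCA), no Hox-Pbx motif (TGATTNAT) and no homeodomain motif (TAATTA) on either strand. The NF-kB motif, searched as 3 G, any 5 bases and 2 C, occurred on both strands, at bases -36 to -27 and -35 to -26 before the gene start, so the pair of matches overlap almost fully. Both matches lie outside the peak, which begins after the gene start. The other 172 bases of the peak lie farther into the gene and their sequence was not used here.

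Over all 24 tabulated Hox promoters, which belong to 22 of the 39 genes, the response element core was found in 0, against 6.85% of 32851 promoters of all genes (exact 95% binomial interval for the Hox promoters 0 to 14.2%). The AP-1 motif was found in 1 Hox promoter, that of Hoxd11 (4.17%, against 7.81% of all promoters). The NF-kB motif was found in 15 Hox promoters (62.5%, against 50.8% of all). The Hox-Pbx motif was found in 2, at Hoxd11 and Hoxa2 (8.33%, against 3.22%), and the homeodomain motif in both windows of Hoxd11 (8.33%, against 5.29%). With 24 windows these shares have wide intervals, and none of the 5 excludes the share of all promoters. The Hox promoters held CG dinucleotides with a median of 14.5 in 300 bases against 7.00 in all promoters.

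With Dex+LPS, GR peaks were assigned to Hoxa5, Hoxb2 and Hoxb1, each with 1 wild-type-specific peak. The other 36 had none, namely the remaining 10 genes of HoxA, 8 of HoxB and all 9 each of HoxC and HoxD. No Hox gene had a zinc mutant-specific or a shared peak. In the background of 21887 protein-coding genes 5.36% had a zinc mutant-specific peak, 9.37% a shared peak and 30.6% a wild-type-specific peak, whereas the Hox genes had 0 of 39, 0 of 39 and 3 of 39 (7.69%, exact 95% interval 1.62 to 20.9%). Hox genes are neighbours and not independent draws, so this interval is too narrow, and no test was run on the difference. In the zinc mutant 0 of 5720 peaks were assigned to a Hox gene, which allows a share of up to 0.0524% (3 counts of the total). That limit lies above the wild-type share of 3 of 22486 peaks (0.0133%), so an absence of Hox binding in the mutant was not detectable with these lists.

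Hoxa5, which patterns the lung, the neck and the upper thoracic skeleton, held its peak inside the gene, between 22 and 221 bases downstream of its start. The position is chromosome 6, 52204366 to 52204565 (build mm10). The same bases lie within the RefSeq spans of Hoxa3 (52169059 to 52213067), whose longest transcripts run across its neighbours, and of the noncoding Hoxaas3 (52201124 to 52213597). The span of Hoxa6 lies 293 bp away. The assignment to Hoxa5 is thus 1 of several the annotation allows.

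Hoxb2, a regulator of hindbrain segments, had its peak 1276 bp upstream of the gene (chromosome 11, 96350157 to 96350356; gene 96351632 to 96354020). These bases also lie inside Hoxb3os, a noncoding gene, and 2227 bp from Hoxb3. Hoxb1 specifies a single hindbrain segment and its facial nerve. Its assigned peak lay outside the cluster, 32.7 kb beyond the end of the gene (96400955 to 96401154). The peak assigned to Hoxb2 was nearer to Hoxb1, at 15.4 kb. The 3 genes all carry paralog numbers of 1 to 5. Of the 15 Hox genes numbered 1 to 5, 3 had an assigned peak, and of the 24 numbered 6 to 13, 0 had one. The split was chosen after the values were seen, at the highest number with an assigned peak, so the 0 follows from the choice. By position, Hoxa6 lies 293 bp from the peak assigned to Hoxa5.

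**Figure D1:**
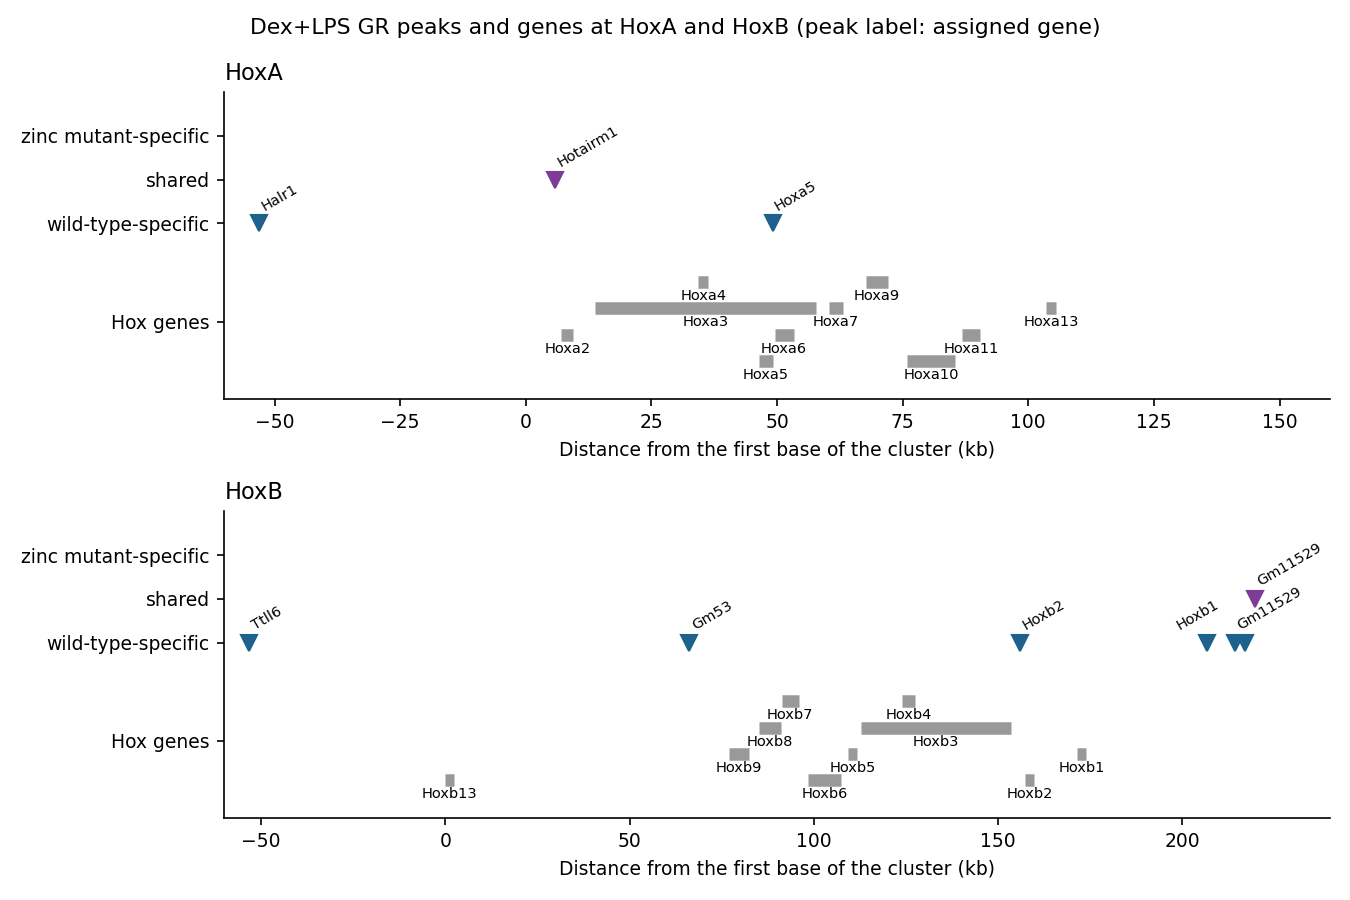
Dex+LPS peaks (triangles, coloured by class and labelled with the gene the authors assigned) and Hox genes (grey bars, staggered for legibility, not all drawn in HoxA) at HoxA and HoxB, by distance in kb from the first base of the cluster. Each cluster held 2 peaks, the shared one beside Hoxa2, and 4 further peaks lay just beyond Hoxb1.

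The span of a cluster, from the first to the last base of its Hox genes, held peaks that were assigned to other genes as well. The 4 spans together cover 492 kb and held no peak specific to the zinc mutant, 1 shared peak and 3 specific to wild type. The shared peak lay in Hotairm1 (chromosome 6, 52161031 to 52161230), a noncoding gene at the low-numbered end of HoxA that is known from human myeloid cells. It was 1187 bp from Hoxa2, which shapes the second branchial arch. It was the only peak of the zinc mutant in any of the 4 spans. Gm53, a noncoding gene between Hoxb13 and Hoxb9, held a wild-type-specific peak (chromosome 11, 96260377 to 96260576), 4588 bp from the microRNA gene Mir196a-1.

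By position, 1 of 4 wild-type peaks in the spans was thus shared with the zinc mutant (25%, exact interval 0.631 to 80.6%), against 0 of 3 by assigned gene (0 to 70.8%). Over all genes the share was 15.7% of 22486 wild-type peaks. So few peaks fix neither a gain nor a loss of shared binding at the clusters.

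HoxC and HoxD contained no peak of any list. HoxC, on chromosome 15 (102921131 to 103036856), lay in a stretch of 704 kb without a Dex+LPS peak. Its 9 genes, among them Hoxc8 and Hoxc10 of the trunk and hindlimb, were 178 to 286 kb from the nearest peak, a shared peak inside Cbx5. Cbx5 encodes a heterochromatin protein. HoxD, on chromosome 2 (74668225 to 74765142), lay in a stretch of 457 kb without a peak. Its 9 genes, among them Hoxd13 of the digits, were 160 to 213 kb from a wild-type-specific peak, toward Lnpk or Mtx2 on either side. The nearest peaks of the zinc mutant were farther from HoxD, with the closest shared peak 894 kb and the closest zinc mutant-specific peak 938 kb from Hoxd1. These classes are also sparser over all chromosomes, with 1.30 shared and 0.804 zinc mutant-specific peaks per Mb against 6.96 wild-type-specific. Whether HoxD differs from other places in this was not tested.

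Of 24648 stretches without a peak, 556 (2.26%) were at least as long as that at HoxC and 1056 (4.28%) at least as long as that at HoxD. Being long, they covered 31.6% and 41.9% of the chromosome length.

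**Figure D2:**
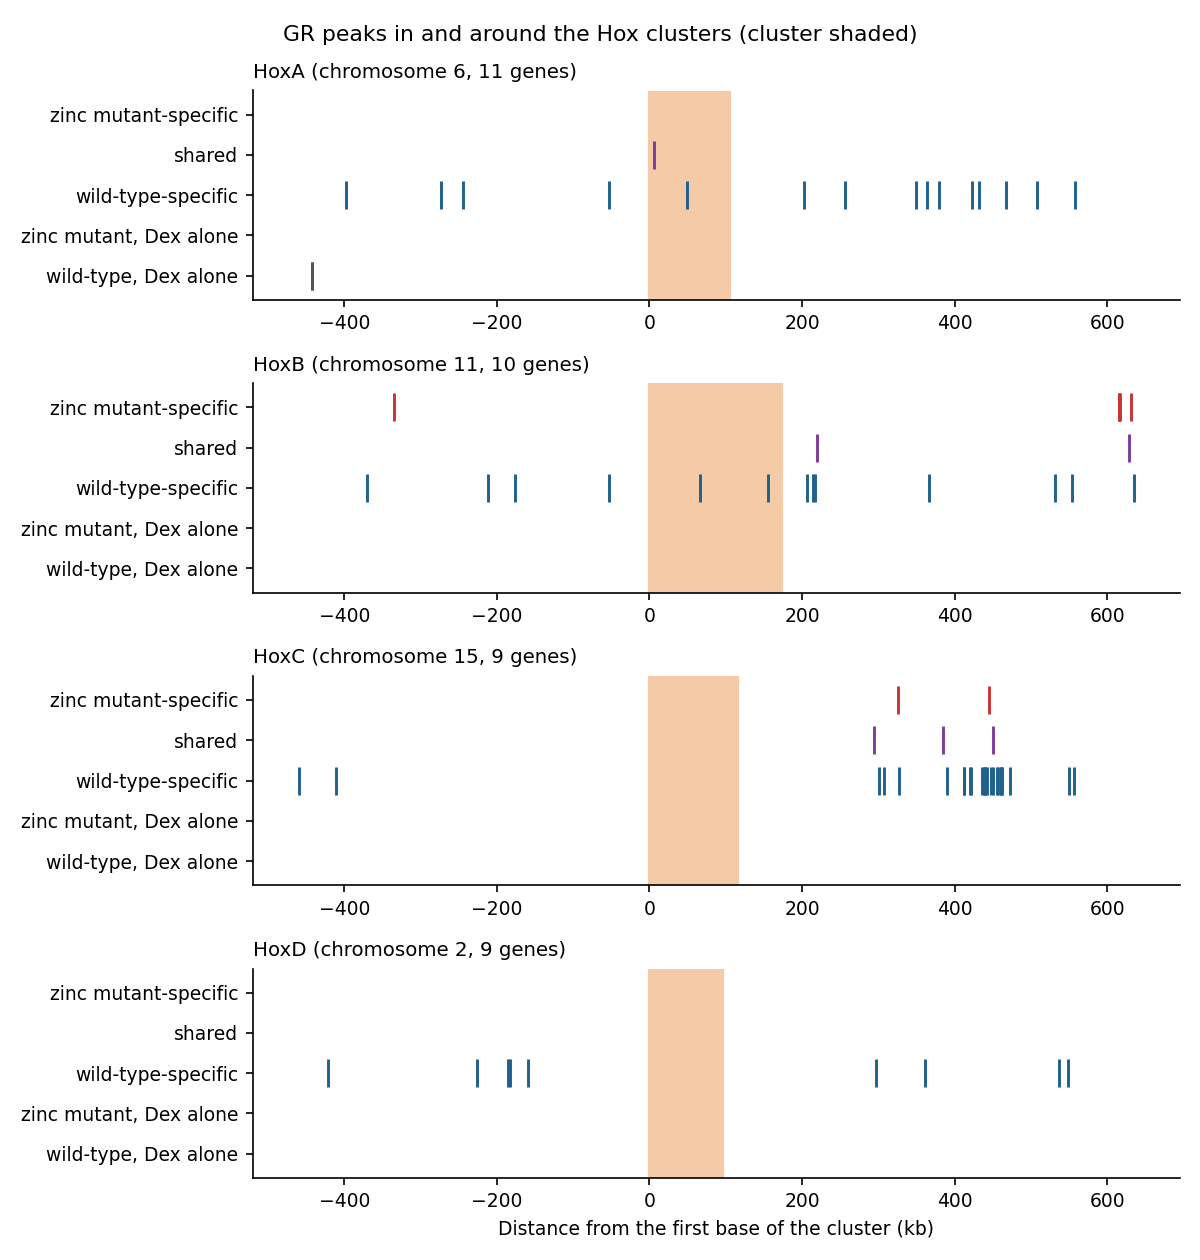
GR peaks within 500 kb of the 4 Hox clusters (shaded), by distance in kb from the first base of the cluster. Each tick is 1 peak, in rows for the 3 Dex+LPS classes and for the Dex libraries (2 per genotype in 1 row, so that overlapping ticks merge); HoxC and HoxD hold no tick in the shaded span.

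The distance to the nearest Dex+LPS peak was shorter in HoxA and HoxB than in HoxC and HoxD, without overlap. In HoxA it ran from 0 to 54.3 kb with a median of 11.1 kb, and in HoxB from 1.28 to 53.2 kb with a median of 21.9 kb. In HoxC the median was 231 kb and in HoxD 189 kb. HoxA and HoxB overlapped each other, and HoxC and HoxD overlapped each other, while no gene of the first pair came as far as any gene of the second. Genes of a cluster share their nearest peaks, the one in Cbx5 for all of HoxC, so they are not independent. The split is thus one between 4 clusters. For the HoxC and HoxD spans, without a peak, the exact 95% Poisson intervals were 0 to 31.9 and 0 to 38.1 peaks per Mb. Both include the 9.07 per Mb of all chromosomes. Over all 39 genes the median was 53.2 kb, against 26.8 kb over all protein-coding genes. A peak lay within 10 kb of 7 Hox genes (17.9%), among them Hoxa2, Hoxa3, Hoxa5, Hoxa6, Hoxb2 and Hoxb3, against 37.3% of protein-coding genes.

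**Figure D3:**
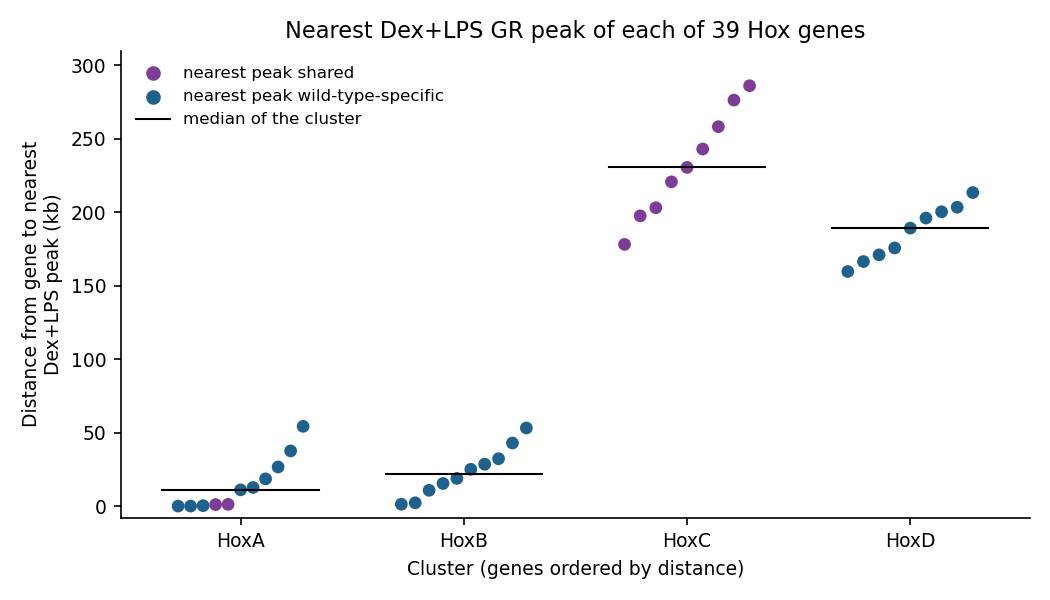
Distance in kb from each of the 39 Hox genes (points, ordered by distance within a cluster) to the nearest Dex+LPS peak, coloured by the class of that peak, with the median of each cluster as a line. HoxA and HoxB genes lie within 54.3 kb of a peak, HoxC and HoxD genes 160 kb or more away. Genes of a cluster share their nearest peaks, so the points are not independent.

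Per base, the number of peaks in the Hox spans differed from that of the chromosomes by less than its counting error. The density was 8.13 Dex+LPS peaks per Mb in the spans (exact 95% Poisson interval 2.21 to 20.8), against 9.89 per Mb on chromosomes 2, 6, 11 and 15, which carry them, and 9.07 per Mb on all chromosomes. Hox genes are short, with a median length of 3.74 kb against 17.2 kb for protein-coding genes, and packed, with 79.3 genes per Mb against 8.04. The part of length and spacing in the low number of Hox genes with a peak was not tested. The 500 kb on either side of the clusters held 71 peaks, 17.8 per Mb (13.9 to 22.4), of which 7 were specific to the zinc mutant, 5 were shared and 59 were specific to wild type. Of the 71, 28 lay beyond HoxC, where the fibronectin receptor gene Itga5 has many of them.

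**Figure D4:**
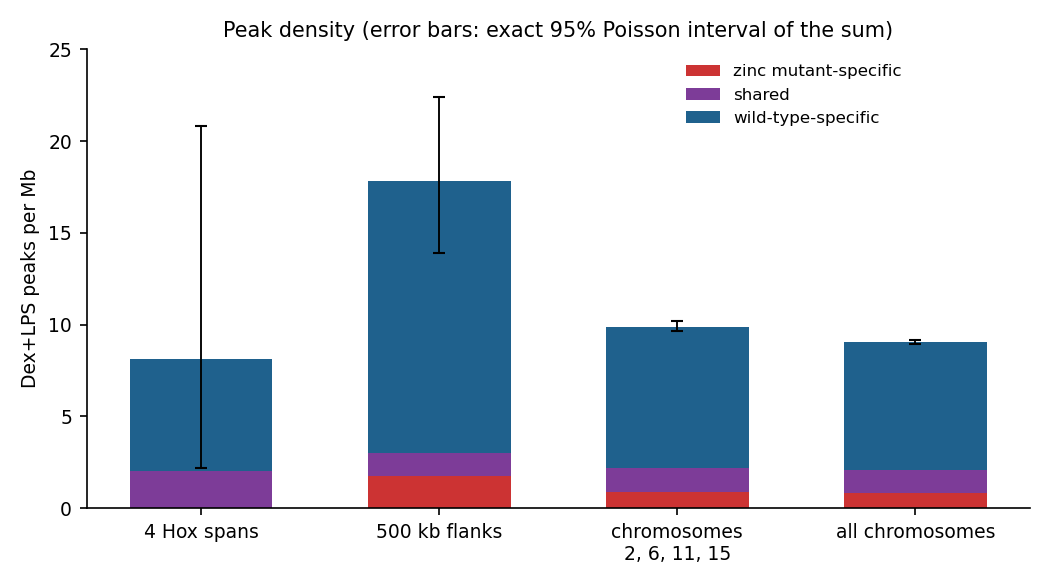
Dex+LPS peaks per Mb (stacked by class) in the 4 Hox spans, in 500 kb on either side of them, on the chromosomes that carry them and on all chromosomes; error bars are exact 95% Poisson intervals of the sum and cover counting error only. The interval of the Hox spans, 2.21 to 20.8 per Mb, includes the value of all chromosomes, 9.07.

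Further peaks lay outside the ends of HoxA and HoxB. Past Hoxb1, 4 peaks fell within 13.2 kb (chromosome 11, 96400955 to 96414110), of which 3 were wild-type-specific and 1 shared. They began 32.7, 40.2, 43.0 and 45.7 kb beyond the last base of Hoxb1, and all but the first were assigned to Gm11529. The last of them, 96413911 to 96414110, was the shared one. On the HoxA side, Halr1, a noncoding gene next to the cluster, had a wild-type-specific peak 550 bp upstream of its start (chromosome 6, 52102200 to 52102399), 53.0 kb before the cluster. At the high-numbered ends, the nearest peak was 53.2 kb from HoxB, wild-type-specific and inside Ttll6, and 96.9 kb from HoxA. Of the 18 listed noncoding genes of the clusters, Hotairm1 and Halr1 had an assigned peak. Hotair, Hottip and the microRNA genes Mir10a, Mir10b and Mir196b had none. Hoxaas3 and Hoxb3os, also listed, overlapped the peaks assigned to Hoxa5 and Hoxb2, and Gm53 was not listed. Among lncRNA and miRNA genes in general 7.25% had an assigned Dex+LPS peak.

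With Dex alone no Hox gene had a peak in any library, where 0.142 and 0.183% of protein-coding genes had one in the mutant libraries and 1.09 and 1.86% in the wild-type libraries. The counts were 0 and 0 in the zinc mutant and 0 and 0 in wild-type cells. The difference was 0 (exact permutation test, two-sided, p = 1.00). With every count at 0 this p was fixed in advance, and no conclusion is drawn from it. With unequal counts the smallest p that 2 against 2 libraries allow is 0.33. A count of 0 allows a Hox share of up to 5.66% and 5.00% of the peaks in the mutant libraries and up to 0.728% and 0.351% in the wild-type libraries, again as 3 counts of each total. All 4 limits lie above the 0.0133% seen in wild-type cells with Dex+LPS, so Hox binding of that frequency was not detectable with Dex alone. Chromosome 11, which carries HoxB, held 4 and 3 peaks in the mutant libraries and 56 and 103 in the wild-type libraries, the nearest of them 3.50 Mb from HoxB.

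Within 500 kb of a cluster, a comparison added after the data were seen, the Dex lists held 0 and 0 peaks in the zinc mutant and 1 and 1 in wild-type cells (difference -1; exact permutation test, two-sided, p = 0.333). The 1 peak was the same site in both wild-type libraries, 442 kb before HoxA (chromosome 6, 51713538 to 51713789 in library 1), and was assigned to Snx10. It overlapped no Dex+LPS peak. Peaks also found in knockout cells had been taken out of the Dex+LPS lists, so this does not show that the site was unbound there.

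Genes chosen by name as neighbours of the clusters had peaks of each class. Some of these peaks, in each class, lay more than 500 kb from a cluster. Among them were the zinc mutant-specific and wild-type-specific peaks assigned to Snx10. Of 20 flanking genes, 2 had a zinc mutant-specific, 2 a shared and 12 a wild-type-specific peak (10.0, 10.0 and 60.0%, against 0, 0 and 7.69% of Hox genes and 5.36, 9.37 and 30.6% of protein-coding genes). Hibadh, an enzyme of valine breakdown beyond HoxA, had 5 wild-type-specific peaks, and Lnpk, beyond HoxD, had 4. Skap1 and Skap2, adaptor genes next to HoxB and HoxA, had 3 wild-type-specific peaks each. Evx1, a homeobox gene at the high-numbered end of HoxA, had 1, and Evx2, its counterpart at HoxD, had 0. Each peak is assigned to 1 gene, so these counts and those of the Hox genes come from the same pool, and the difference was not tested.

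The partners of Hox proteins had peaks of both genotypes. Of 9 TALE homeodomain cofactors, which bind DNA together with Hox proteins, 1 had a zinc mutant-specific, 3 a shared and 4 a wild-type-specific peak (11.1, 33.3 and 44.4%, against 5.36, 9.37 and 30.6% of protein-coding genes). With 9 genes, each of these shares has an exact interval that includes the protein-coding share. Meis1 had 4 peaks specific to the zinc mutant, 1 shared peak and 10 specific to wild type. They lay far from its start, at medians of 443 kb for the zinc mutant-specific and 350 kb for the wild-type-specific peaks, and 3 of the wild-type-specific ones were inside the gene. Wild-type Dex library 2 had 2 peaks there as well, 379 and 392 kb from the start, and the other 3 Dex libraries had 0. Pknox2 had 0 peaks specific to the zinc mutant, 2 shared peaks and 4 specific to wild type. Pbx2, Pbx3, Meis2, Meis3 and Pknox1 had none.

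Genes of the retinoic acid pathway, the best known inducer of Hox genes, had wild-type-specific peaks in 12 of 15 cases (80.0%, against 30.6% of protein-coding genes). The exact 95% interval was 51.9 to 95.7%. Several of these genes count only through a peak outside the gene, such as Rxrg (62.7 kb from the start) and Aldh1a3 (50.1 kb). Gene length was not taken into account, and the difference was not tested. Rarb, a retinoic acid receptor, had 18 Dex+LPS peaks, all wild-type-specific and 16 of them inside the gene. They lay 51.1 to 649 kb from the start the authors used. Zinc mutant-specific peaks were found at 2 of the 15 genes (13.3%, against 5.36%) and shared peaks at 3 (20%, against 9.37%). Rarg had 1 of each class, all inside the gene, and Rxra, the common dimer partner of these receptors, had 1, 2 and 2. The enzymes that make retinoic acid, Aldh1a1, Aldh1a2 and Aldh1a3, had 2, 1 and 1 wild-type-specific peaks and no peak of the zinc mutant. Of all 24673 Dex+LPS peaks, 18953 were wild-type-specific, so these few peaks do not set the enzymes apart from other genes. Cyp26b1, which breaks it down, had 1 wild-type-specific peak. With Dex alone, wild-type library 2 had 1 peak inside Rarb, which overlapped no Dex+LPS peak. Wild-type library 1 had 1 inside Aldh1a1, which overlapped a wild-type-specific Dex+LPS peak.

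Of 20 Polycomb and trithorax genes, 2 had a zinc mutant-specific, 2 a shared and 5 a wild-type-specific peak (10.0, 10.0 and 25%, against 5.36, 9.37 and 30.6% of protein-coding genes). Kmt2a, the methyltransferase that keeps Hox genes on, had a shared peak centred 190 bp upstream of its start (chromosome 9, 44881365 to 44881564). Bmi1, a Polycomb component, had a zinc mutant-specific peak centred 272 bp upstream of its start (chromosome 2, 18676646 to 18676845). Kdm6b, a demethylase that removes the Polycomb mark, had 2 peaks specific to the zinc mutant and 2 specific to wild type, and the zinc mutant-specific ones lay inside the gene, 3.06 and 4.03 kb from the start. Ezh2 and Suz12, core Polycomb subunits, had none, and Eed had 1 wild-type-specific peak.

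**Figure D5:**
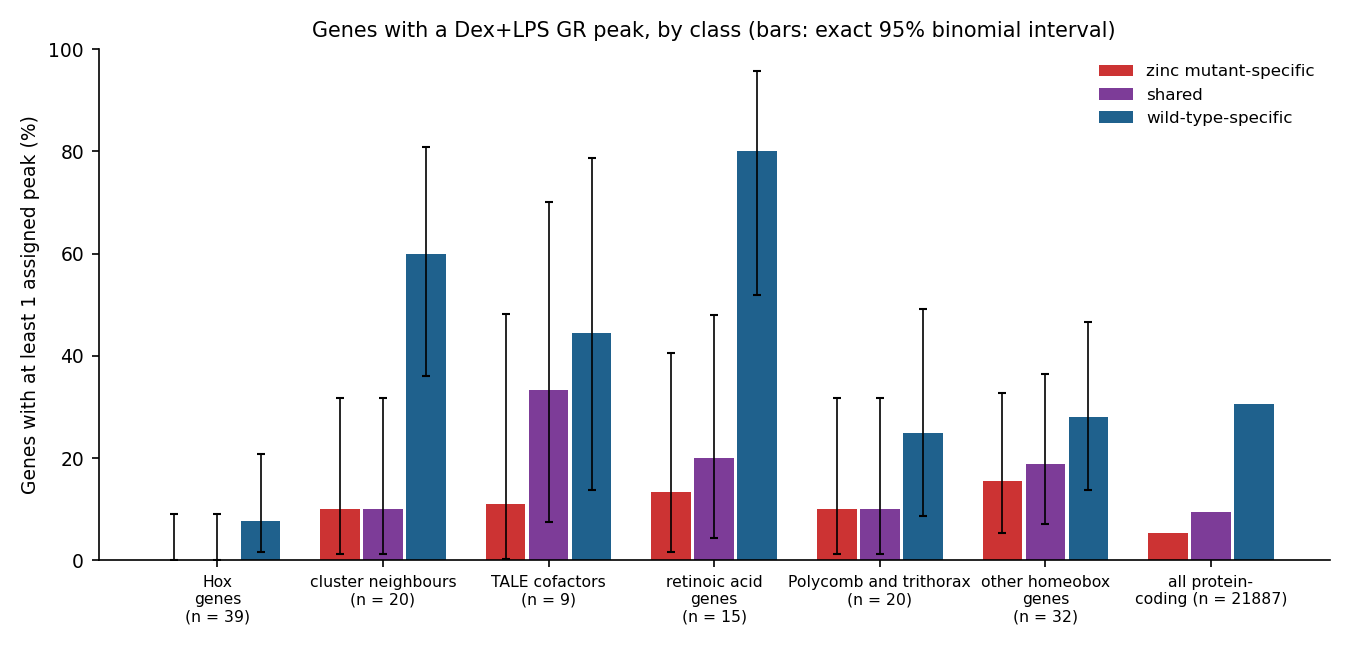
Percent of genes with at least 1 assigned Dex+LPS peak, by class, for the 39 Hox genes, 5 related gene groups and all protein-coding genes; error bars are exact 95% binomial intervals. Hox genes stand at 0, 0 and 7.69%, and all protein-coding genes at 5.36, 9.37 and 30.6%.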

How the data were processed

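GR ChIP-seq peak lists of mouse embryonic fibroblasts were used as the authors deposited them. They hold 1-based mm10 positions and distances in bp. Per the submitters' processing notes, BWA 0.7.13, Picard 1.119 and MACS2 2.1.0 were used; their roles are not given in the sources used here. Per the file names, Dex+LPS libraries were merged and peaks found in knockout cells removed. Read depth is unknown, and a list from deeper or more libraries can be longer for that reason alone.

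Genes and distances to gene starts, taken from the middle of a peak, are the authors' assignments, matched by Entrez identifier to RefSeq (GRCm38.p6), and all 3 Hox identifiers matched. Distances from the cluster or from gene spans were computed from RefSeq. Overlap meant at least 1 bp. Shares have exact binomial intervals and densities exact Poisson intervals; where a list held no Hox peak, the limit on its share is 3 counts of its total. Both cover counting error only. Chromosome length was taken to the last annotated gene. Dex libraries were compared by exact permutation test. Simple overlap and gap counts, written separately from those used here, gave the known answers on simulated intervals. The other calculations were not tested in this way. No test was run across genes or peaks.

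All 39 Hox genes were counted, and genes with a peak were named; from other groups mainly those with most peaks are named. Other genes of those groups, the run beyond Hoxb1 and the split by paralog number were chosen after the values were seen. Members and lists were chosen with earlier results of these data known. Some genes are not reported here by name, though they are counted. Of 22 flanking genes listed, 20 matched. Python 3.11.15 was used with scipy 1.17.1, pandas 2.3.3, numpy 2.4.6 and matplotlib 3.10.9.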

Additional observations from a re-analysis of the deposited data

How the results depend on the processing

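Of 28 alternative values, 20 equalled the reported ones and 8 differed, 4 of them by more than 1.5 times as counts or differences. Many of the 20 could not have differed. A count of 0 stays 0 when fewer peaks are counted. Where the libraries of a genotype have equal counts, leaving a library out returns the same difference. The 20 are thus no measure of how stable the results are. The share of wild-type Hox peaks shared with the zinc mutant was 25% by position in place of 0, within its interval, and the density was 6.99 per Mb with spans widened by 10 kb. With peaks counted by position in the 4 spans, the shared class had 1 peak in place of 0, and the wild-type-specific class had 3 as before. With a peak given to each gene within 5 kb of it, 2 Hox genes had a shared peak and 5 (Hoxa3, Hoxa5, Hoxa6, Hoxb2 and Hoxb3) a wild-type-specific peak, against 8.13 and 28% of protein-coding genes. These moves follow from how a peak is given to a gene. With peaks within 10 kb of the start, Hoxb1 dropped out and 2 genes remained, with 2 wild-type-specific peaks. Leaving out each Dex library in turn gave differences of 0 to 0 for Hox peaks and -1 to -1 for peaks within 500 kb, and within 200 kb that difference was 0; this comparison and its widths were chosen after seeing the data. With the replicate block the difference was 0 for Hox peaks (exact permutation p = 1.00) and -1 for flanking peaks (exact permutation p = 0.500, the smallest that 2 pairs allow). The p for Hox peaks was again fixed by counts of 0. With counts of 0 and 1 the pairing of the replicate numbers could not be checked. The share of zinc mutant Hox peaks that were shared had no value, since there was no such peak, and no Dex Hox peak existed to set against Dex+LPS. The merged lists did not allow a library to be left out.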

Other observations

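Other homeobox genes that pattern mesenchyme had peaks of all classes. Of 32 such genes, 5 had a zinc mutant-specific, 6 a shared and 9 a wild-type-specific peak (15.6, 18.8 and 28.1%, against 5.36, 9.37 and 30.6% of protein-coding genes). Prrx1, a marker of limb mesenchyme, had 2 peaks specific to the zinc mutant, 4 shared and 8 specific to wild type. All 6 peaks of the zinc mutant lay inside Prrx1, 5 of them between 0.746 and 4.19 kb from its start and 1 at 21.5 kb. Irx1, a limb and heart patterning gene, had 2, 1 and 12 peaks in the same order, and none of the 15 was inside the gene. Meox2, a homeobox gene of muscle and vessel precursors, had 2, 1 and 6, and 1 peak in each wild-type Dex library at different positions, of which that of library 2 overlapped a wild-type-specific Dex+LPS peak. Msx1, Msx2, Dlx5, Pitx1 and Shox2 had none.

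Of 12 fibroblast genes, 6 had a zinc mutant-specific, 11 a shared and 11 a wild-type-specific peak (50, 91.7 and 91.7%, against 5.36, 9.37 and 30.6% of protein-coding genes). Col3a1, a fibrillar collagen, had 2, 5 and 7 in the same order, and Col1a2 had 3 of each class. Peaks give no expression level, so these counts do not check the cell type.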
